A study of Mus musculus with 8 samples.

Results

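Mouse pancreatic cancer cells exposed to extracellular vesicles (EVs) of activated T cells were compared with the same cells exposed to EVs of non-activated T cells. The comparison comprised 4 of the 8 RNA-seq libraries of the series, 2 per EV type, and every gene that passed a filter on expression was tested. The cells were 1 low-immunogenicity clone from KPCY mice, a pancreatic cancer model with the alleles KrasLSL-G12D/+, Trp53LSL-R172H/+, Pdx1-Cre and Rosa26YFP/YFP. In these mice Cre driven by the pancreatic Pdx1 promoter switches on the conditional alleles. All groups share that background although the sample labels give the genotype as WT. Cultured cells received ATEVs (15 µg/mL) or NTEVs (30 µg/mL), which is taken to be 5 µg/mL of EV-DNA for either kind. They were harvested and reseeded the following day, and the cycle was repeated 8 times. The submitters define NTEVs as derived from non-activated T cells; ATEVs are not spelled out and are read, by contrast, as the vesicles of activated T cells. Because the EV mass differed between the groups, activation of the donor T cells and EV mass cannot be told apart. PBS-treated cells served as the background and were not part of the contrast.

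Cells display peptides to T cells on MHC molecules. Class I molecules, made of a heavy chain and beta-2 microglobulin, carry peptides cut by the proteasome and brought into the endoplasmic reticulum by the TAP transporter, and are present on nearly all nucleated cells. Class II molecules are normally found on professional antigen-presenting cells, but epithelial cells can make them when the transactivator CIITA is induced, classically by interferon-gamma. Interferons also induce guanylate-binding proteins, immunity-related GTPases and antiviral effectors. Pancreatic tumours often display little MHC on their cells.

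Gene totals were between 40115262 and 51749114 counts in the 4 libraries compared. Epithelial identity was visible in each of them, with Krt8 between 2045 and 2623 CPM (counts scaled to library size) and Cdh1 between 1204 and 1449 CPM. Epcam was low, between 6.44 and 26.8 CPM. Of 26 T cell markers 23 did not pass the expression filter: Cd3e, of the T cell receptor complex, had 1 count in all 4 libraries together, and Cd3d, Cd3g, Cd8a, Ifng and Gzmb had 0. The library labelled ATEV replicate 1 correlated with ATEV replicate 2 at a Pearson r of 0.985 across genes on the log2 scale, and the NTEV libraries with each other at 0.990. Whether 2 libraries with the same treatment are separate cultures is not stated. P-values here set the difference between the groups against the spread between libraries of a treatment, estimated over all 8 libraries. That spread may not include differences between separate cultures.

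Of 15197 genes tested, 159 (1.05%) were higher and 22 (0.145%) were lower in the ATEV libraries at an adjusted p under 0.05 (edgeR's quasi-likelihood test, Benjamini-Hochberg adjustment), 181 genes (1.19%) in all. The rises were large. Of the 159 genes, 157 rose at least 2-fold, 94 at least 10-fold and 46 at least 100-fold on the fitted scale, and 11 had no count in either NTEV library. The falls were smaller, with 21 of 22 at least 2-fold and 1 at least 10-fold. The median absolute log2 fold change was 3.80 among the called rises and 1.63 among the called falls. The signed median over all genes tested, which is not a typical size of change, was 0.01. Called rises included 150 protein-coding genes and 5 pseudogenes. In 93 of the 159 raised genes the NTEV mean lay within 1.5-fold of the PBS mean, in 55 it lay above that range and in 11 below. Among the 22 lowered genes the NTEV mean was within 1.5-fold of PBS in 18. The number of calls rested partly on single libraries: it was 71 without NTEV replicate 1, 94 without NTEV replicate 2, 115 without ATEV replicate 1 and 166 without ATEV replicate 2. Fitted to the 4 compared libraries alone, the test called 51 genes, 50 of them among the 181, and DESeq2 called 469.

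**Figure D1:**
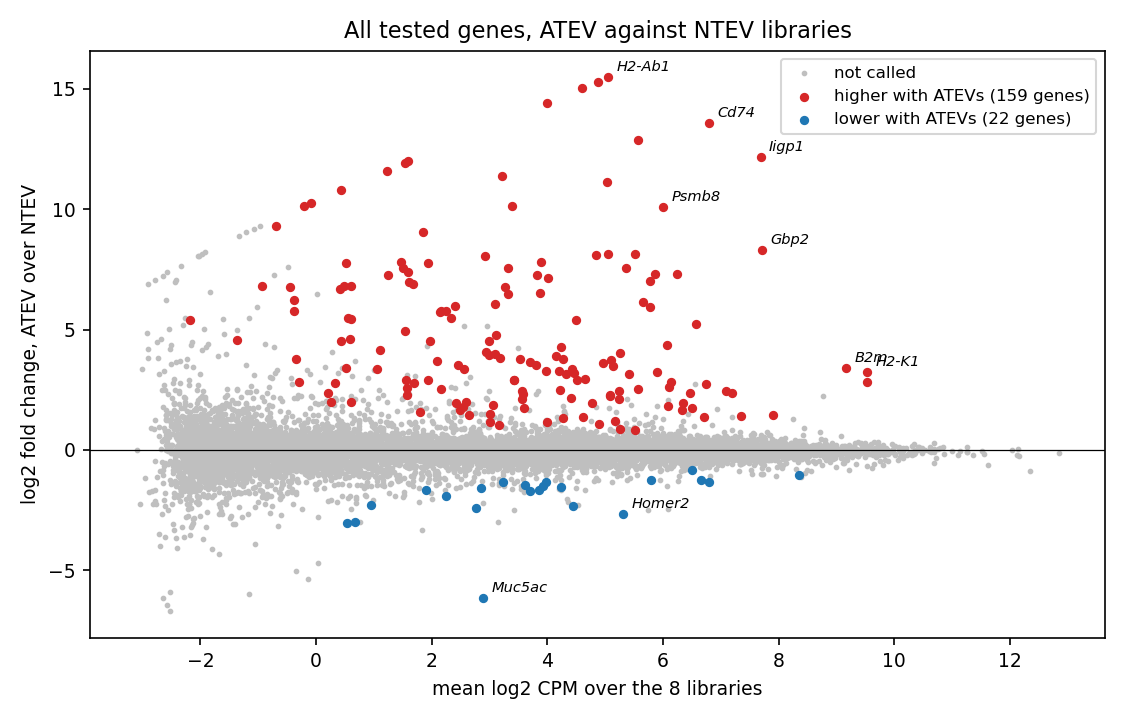
Each point is 1 of the tested genes, with its mean log2 CPM over the 8 libraries on the x axis and its log2 fold change, ATEV over NTEV, on the y axis. Red points are the 159 genes called higher and blue points the 22 called lower; the rises extend to a log2 fold change of 15.48 (H2-Ab1) and the falls to -6.17 (Muc5ac).

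The called genes were then counted over gene lists. Of 34 gene lists, which together hold 822 genes, 18 contained at least 1 called gene, and 95 of the 181 called genes stood in some list. The class I, class II, GTPase and antiviral lists had medians between 1.85 and 14.01, whereas the medians of the signalling, growth, stress and metabolism lists lay between -0.15 and 0.35.

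**Figure D2:**
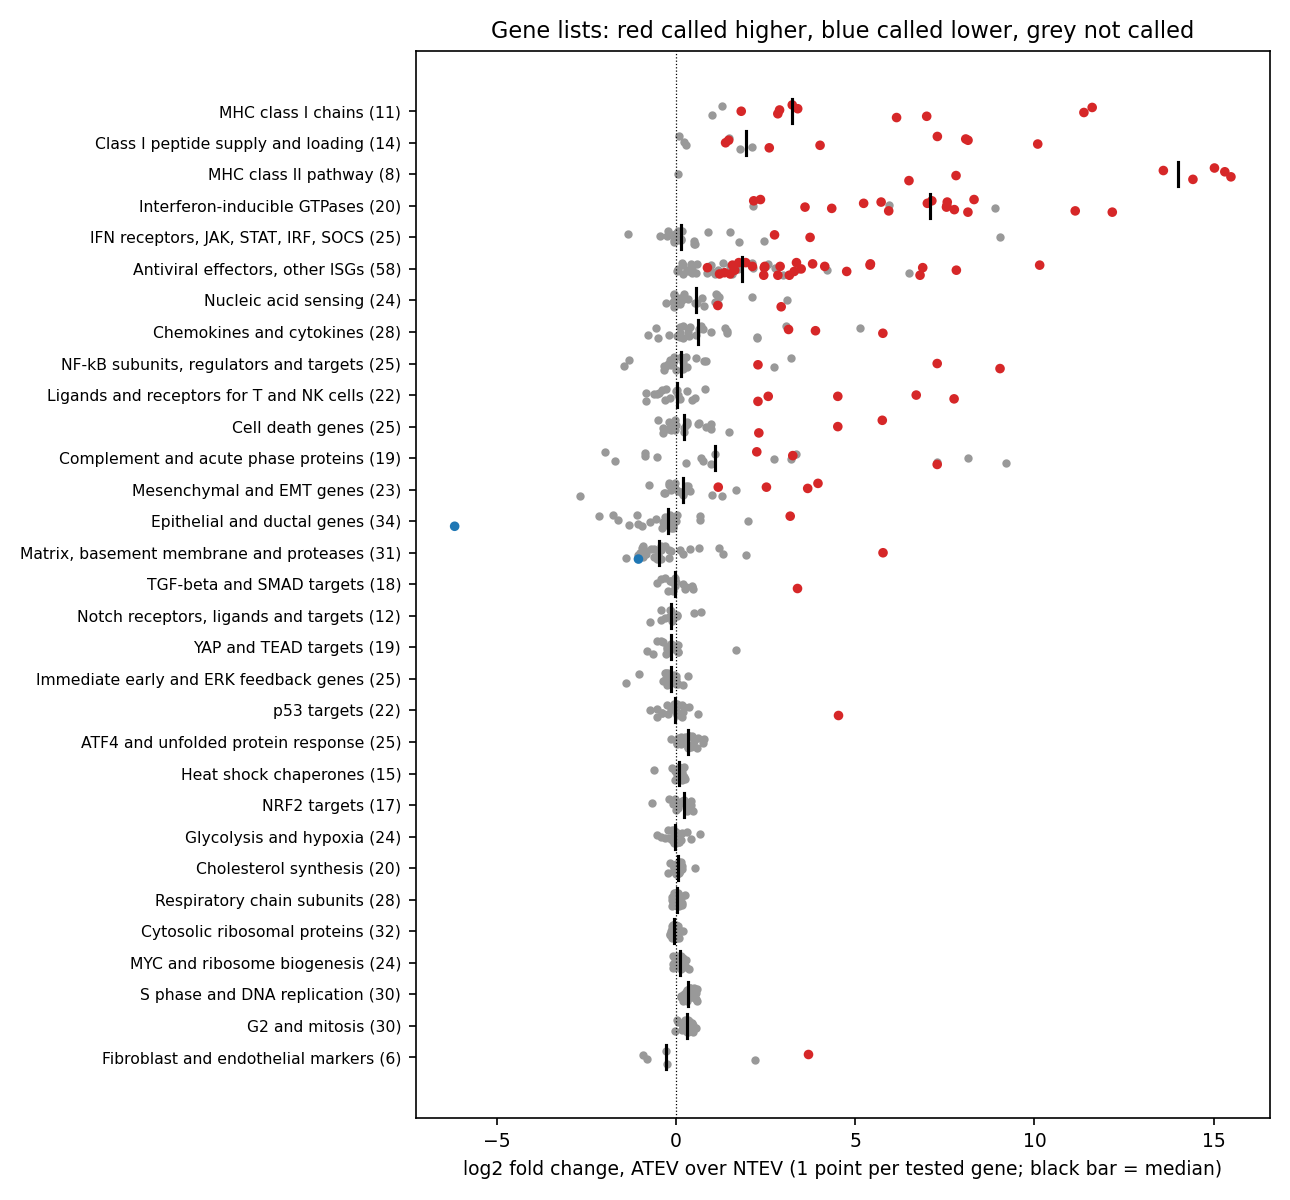
Each point is a tested member of a gene list, placed by its log2 fold change, ATEV over NTEV, on the x axis; red members were called higher, blue lower and grey not called, black bars are list medians and tested members are in parentheses. MHC class II (median 14.01), GTPases (7.07), class I chains (3.24), class I loading (1.96) and antiviral genes (1.85) lie to the right, and lists with fewer than 6 tested members are left out.

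MHC class II genes had the 5 largest fitted log2 fold changes of the comparison, 4 of them over NTEV counts of 0, where the fitted size depends on the model. Of 8 members tested, 7 rose, none fell, and the list median was 14.01 on the log2 scale, or 11.22 with genes that had 0 to 3 NTEV counts set at the fold their counts allow. The beta chain H2-Ab1 was at 163 and 102 CPM in the ATEV libraries and at 0 counts in both NTEV libraries, as in both PBS libraries. Measured against a floor of 3 counts over the NTEV group, it was at least 4034-fold higher (adjusted p = 0.00441). Its partner alpha chain H2-Aa stood at 111 and 81.5 CPM with ATEVs and again at 0 counts with NTEVs, at least 2934-fold higher (adjusted p = 0.00128). H2-Eb1, the other beta chain, was at 143 and 92.4 CPM against 0 and was at least 3584-fold higher (adjusted p = 0.00441). The 3 chain genes were thus read only in the ATEV libraries among these 4. Ciita, the class II transactivator, had 3942 and 1603 counts with ATEVs and 0 with NTEVs, at least 1934-fold higher (adjusted p = 0.00588).

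The rest of the class II route rose with the chains. Cd74, the invariant chain that occupies the groove until peptide loading, was at 401 and 483 CPM with ATEVs and rested on 2 and 1 counts with NTEVs. The counts give a ratio of 13455 (95% counting interval from 4604 to 65246), and the fit a log2 fold change of 13.59 ± 0.47 (SE, adjusted p = 0.000101). H2-DMa and H2-DMb1 form the exchange factor that removes the invariant chain fragment. H2-DMb1 was at 71.3 and 45.4 CPM against 0.156 and 0.373 (log2 fold change 7.81 ± 0.46, adjusted p = 0.00092), and H2-DMa at 48.3 and 27.5 against 0.410 and 0.423 (6.50 ± 0.53, adjusted p = 0.00266). Ifi30, the lysosomal thiol reductase, was the tested member that was not called, with a log2 fold change of 0.06, and 5 listed members did not pass the filter. Of 21 markers of myeloid and B cells, which carry class II constitutively, 16 did not pass the filter. Of these, 6 had 0 counts in all 4 libraries. The 5 markers that passed the filter were not called, with a median log2 fold change of 0.91 and a range from -0.07 to 4.63. Of these, 1 had an unadjusted p under 0.05, and it was higher. In 3 both ATEV values lay above both NTEV values, where 13.7% of all tested genes did. The list summed to 156 and 169 CPM with ATEVs against 108 and 125 with NTEVs, nearly all of it Cd14, a receptor for lipopolysaccharide (152 and 165 against 105 and 121 CPM). The part of such cells in the class II rise was not tested. All 7 rises passed the test in each of the 4 fits that left out 1 library. A filter of 1 CPM in 4 libraries removes these genes, since they were expressed in only 2, and leaves 0 calls.

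Promoters of the class II genes carry a conserved array of X and Y boxes through which CIITA acts. Promoter windows in RefSeq (GRCm38.p6, a different build from the mm9 of the authors' notes) were searched on both strands for the letters AGNNACNGATG as an X box and ATTGG as a Y box, motifs that do not overlap each other in the windows shown. The 150 bases before the annotated start are given 5′ to 3′ for 3 class II genes, with matches in capitals, as examples with and without the X box letters. They lie at chr17:34305717-34305866 (plus strand), chr17:34153041-34153190 (plus strand) and chr17:34287824-34287973 (minus strand).
H2-Eb1: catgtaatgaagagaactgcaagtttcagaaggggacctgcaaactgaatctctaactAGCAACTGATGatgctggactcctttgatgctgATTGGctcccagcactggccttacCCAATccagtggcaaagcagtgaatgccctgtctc
H2-DMb1: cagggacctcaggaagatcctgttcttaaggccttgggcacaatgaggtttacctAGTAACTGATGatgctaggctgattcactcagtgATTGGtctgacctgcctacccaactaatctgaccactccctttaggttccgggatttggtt
H2-Aa: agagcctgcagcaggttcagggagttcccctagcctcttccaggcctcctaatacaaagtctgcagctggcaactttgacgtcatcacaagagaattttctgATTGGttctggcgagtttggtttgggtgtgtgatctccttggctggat
In H2-Eb1 and H2-DMb1 the X box stands upstream of a Y box. In H2-Aa the window holds a Y box, and these X box letters were not found. An X box match occurred in the windows of 1.14% of 27025 genes with a window and in 3 of the 118 raised genes that have one. The short Y box was common, in 41.06% of all genes with a window and in 50 of the 118.

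MHC class I genes rose from a level that the NTEV-treated cells already had. Of 11 tested class I chains, 9 rose and none fell, with a median log2 fold change of 3.24. The classical heavy chain H2-K1 was at 2000 and 2576 CPM with ATEVs against 203 and 280 with NTEVs, a log2 fold change of 3.24 ± 0.22 (adjusted p = 0.00128). H2-D1, the other classical chain, was at 1880.1 and 2292 CPM against 258 and 324 (2.84 ± 0.18, adjusted p = 0.00117). B2m, the shared light chain, was at 1520.0 and 1949 CPM against 139 and 191 (3.40 ± 0.29, adjusted p = 0.00289). For each of these 3 genes the lower ATEV library was more than 5 times the higher NTEV library. In the PBS libraries H2-K1 stood at 195 and 190.4 CPM, near the NTEV values.

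Non-classical class I chains changed by very different factors. H2-Q4, an atypical chain of the Qa region, was at 192 and 185 CPM against 1.99 and 3.33 (log2 fold change 6.15 ± 0.51, adjusted p = 0.00273). H2-Q6 and H2-Q7 had 1 and 0 NTEV counts in all, with 32.7 and 41.3 CPM of H2-Q6 and 7.36 and 10.8 CPM of H2-Q7 in the ATEV libraries. H2-T22 was at 157 and 137 CPM against 40.0 and 43.1 (1.82 ± 0.15, adjusted p = 0.00273), the smallest of the 9 rises. H2-T23, which encodes Qa-1, was at 105 and 148 CPM against 36.6 and 68.4 and was not called (log2 fold change 1.27, adjusted p = 0.27). Reads of these near-identical genes can be assigned to the wrong copy, so the individual values of the Q and T genes are uncertain. The 9 calls held in each fit without 1 library.

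Most genes that supply and load class I peptides rose, by very different factors. Of 14 tested, 8 rose and none fell, with a median of 1.96. Psmb8 and Psmb9 encode interferon-induced catalytic subunits that replace those of the standard proteasome. Psmb8 was at 316 and 195 CPM with ATEVs against 0.195 and 0.274 with NTEVs (log2 fold change 10.09 ± 0.36, adjusted p = 0.000101), the smallest adjusted p of the comparison together with Cd74. Psmb9 was at 136 and 89.1 CPM against 0.274 and 0.572 (8.08 ± 0.50, adjusted p = 0.000988). The third such subunit gene, Psmb10, was already present with NTEVs, at 28.8 and 28.5 CPM, and reached 245 and 103 CPM with ATEVs (2.60 ± 0.37, adjusted p = 0.0231). Tap1 and Tap2 encode the 2 subunits of the peptide transporter. Tap1 was at 347 and 242 CPM against 1.31 and 2.49 (7.29 ± 0.48, adjusted p = 0.00122), and Tap2 at 147 and 116 against 4.59 and 11.7 (4.02 ± 0.45, adjusted p = 0.00773). Tapbp, or tapasin, which holds class I molecules at TAP, rose from a high level, from 152 and 205 CPM to 592 and 396 (1.47 ± 0.23, adjusted p = 0.033). Psme1, a subunit of the proteasome activator PA28, rose from 63.8 and 83.8 CPM to 223 and 162 (1.38 ± 0.22, adjusted p = 0.0378).

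The general chaperones of the same route did not pass the test. Calr was at 1197 and 839 CPM with ATEVs against 1005 and 732 with NTEVs, and Pdia3 at 794 and 663 against 666 and 541. For both genes the groups overlapped. Nlrc5, the transactivator of class I genes, was at 151 and 109 CPM against 0.137 and 0.821 (log2 fold change 8.15 ± 0.79, adjusted p = 0.00441), so the transactivators of both MHC classes rose. The number of loading genes called was 5 without NTEV replicate 1, 5 without NTEV replicate 2 and 11 without ATEV replicate 2, against 8 with all libraries. Without NTEV replicate 1 the adjusted p of Psmb10 was 0.179, and without NTEV replicate 2 it was 0.151. Tapbp and Psme1 lost their calls without NTEV replicate 1 (0.225 and 0.278), ATEV replicate 1 (0.0992 and 0.157) or NTEV replicate 2 (0.0753 and 0.0948). Strand handling of the counts is not given in the sources used here. Tap1 overlaps Psmb9, Psmb8 and Tap2 overlap a predicted transcript, and Nlrc5 and Ciita each overlap a gene on the opposite strand. Reads of such pairs may therefore be mixed. Overlap was taken over whole gene bodies, introns included, and how many reads the pairs share was not tested.

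**Figure D3:**
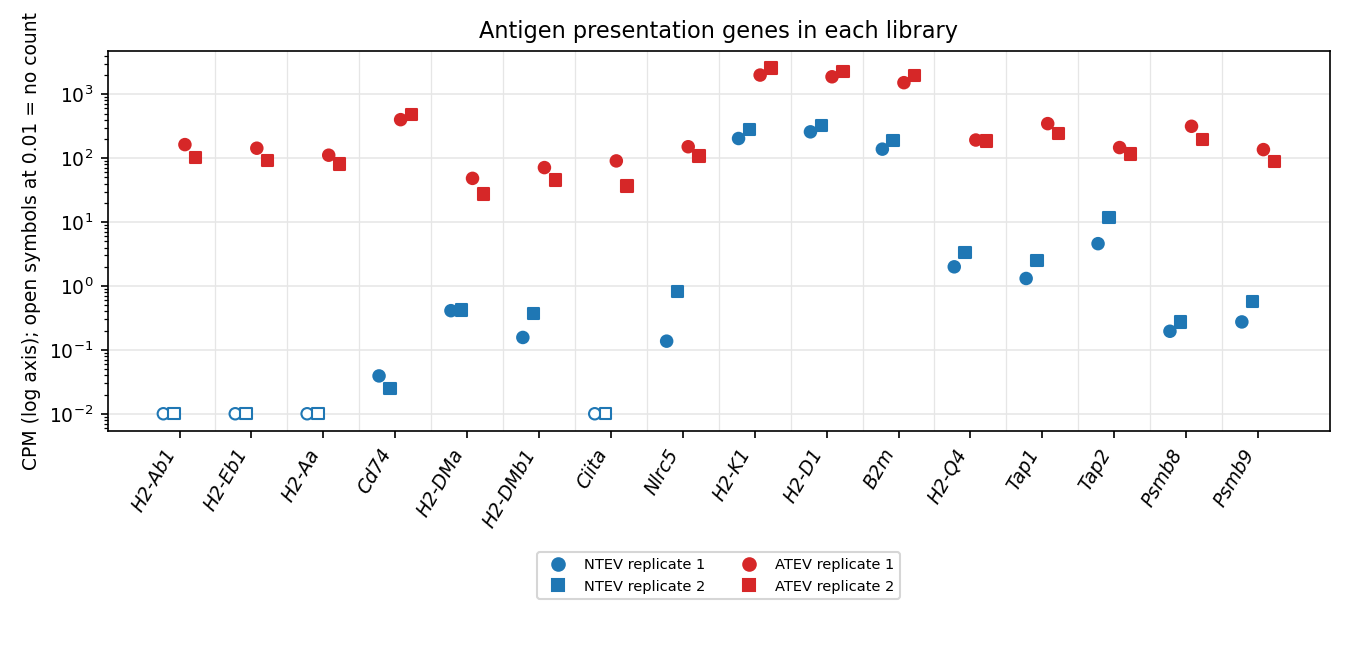
CPM on a log axis for 16 antigen presentation genes in the 2 NTEV libraries (blue) and the 2 ATEV libraries (red), circles for replicate 1 and squares for replicate 2, with open symbols at 0.01 for genes without a count. For each gene both red symbols lie above both blue ones; H2-Ab1, H2-Eb1, H2-Aa and Ciita have no NTEV count.

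Interferon-inducible GTPases, which coat and disrupt the vacuoles of intracellular microbes, rose almost as a family. Of 20 tested, 17 rose and none fell, with a median log2 fold change of 7.07, or 6.57 with low-count genes at the fold their counts allow. Iigp1, an immunity-related GTPase, was at 1111 and 535 CPM with ATEVs against 0.156 and 0.199 with NTEVs (log2 fold change 12.17 ± 0.70, adjusted p = 0.00092). Tgtp2, an interferon-inducible GTPase gene that is T-cell-specific in name only, was at 181 and 79.3 CPM against 0.0391 and 0.0747 (11.14 ± 0.67, adjusted p = 0.000962). Gbp2, a guanylate-binding protein, differed widely between the ATEV libraries, at 1386 and 270 CPM, against 1.21 and 4.06 with NTEVs (8.31 ± 1.00, adjusted p = 0.0109). Even its lower ATEV value lay far above both NTEV values. Gbp4 was at 285 and 74.4 CPM against 0.489 and 0.796 (8.14 ± 0.77, adjusted p = 0.00441), and Gbp3 at 301 and 114 against 1.41 and 1.82 (7.01 ± 0.54, adjusted p = 0.00243). The other 12 called members had log2 fold changes between 2.17 and 7.76. The 3 members not called were Gbp2b, Gbp8 and Gbp11, with log2 fold changes of 8.89, 2.16 and 5.93.

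All 20 GTPase genes, called or not, had both ATEV values above both NTEV values, where 13.7% of all tested genes did. All 20 were also higher in ATEV replicate 1 than in ATEV replicate 2, with a median log2 ratio of 1.13. Among the NTEV libraries 2 of the 20 were higher in replicate 1. Their summed CPM was 5465 and 2090 in the ATEV libraries, 106 and 141 in the NTEV libraries and 110 and 80.8 in the PBS libraries. The call count was 10 without NTEV replicate 1, when the adjusted p of Gbp2 was 0.0732, 12 without NTEV replicate 2, 16 without ATEV replicate 1 and 17 without ATEV replicate 2. Several of these genes are near-identical neighbours, such as Tgtp1 and Tgtp2, so single values are uncertain.

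Of 58 antiviral effectors and other interferon-stimulated genes tested, 27 rose and none fell, with a median of 1.85. A further 18 had an unadjusted p under 0.05 in the same direction, giving 45 of 58 where 4.4% of all genes did. Zbp1, a sensor of Z-form nucleic acids that can trigger necroptosis, was at 50.8 and 31.0 CPM with ATEVs and had 0 and 3 counts with NTEVs (log2 fold change 10.14 ± 0.66, adjusted p = 0.00117). Oas3, which makes the second messenger that activates RNase L, was at 64.2 and 92.0 CPM against 1.02 and 2.69 (5.41 ± 0.60, adjusted p = 0.00764). Its relative Oas1a was at 23.3 and 31.9 CPM against 0.567 and 1.49 (4.76 ± 0.52, adjusted p = 0.00739). Cmpk2, a mitochondrial nucleotide kinase, was at 10.4 and 10.6 CPM against 0.0586 and 0.0249 (7.82 ± 0.75, adjusted p = 0.00441). Oasl2 was nearly equal in the ATEV libraries, at 100.1 and 100.2 CPM, against 6.33 and 11.5 (3.49 ± 0.36, adjusted p = 0.00582).

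Widely used markers of the type I interferon response were among them. Isg15, a ubiquitin-like modifier, was at 21.9 and 26.7 CPM against 0.880 and 2.61, and Ifit1, which binds foreign RNA caps, was at 8.55 and 19.3 CPM against 0.841 and 1.89. Both rose, with log2 fold changes of 3.81 ± 0.47 and 3.36 ± 0.54 (adjusted p = 0.012 and 0.0372); these 2 genes were chosen after their values were seen. Ifit1 lost its call without NTEV replicate 1 (0.233), NTEV replicate 2 (0.0684) or ATEV replicate 2 (0.0756). Irf7, an interferon regulatory factor, was at 45.3 and 86.3 CPM against 10.97 and 28.0 and was not called (adjusted p = 0.333). Of the 58 genes, 22 were higher in ATEV replicate 1 than in replicate 2, so the antiviral genes did not share the one-sided order of the GTPases. Their call count was 7 without NTEV replicate 1, 14 without NTEV replicate 2, 17 without ATEV replicate 1 and 23 without ATEV replicate 2, against 27 with all libraries.

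Signalling genes upstream of these effectors were counted in the same way. Of 25 interferon receptor, JAK, STAT, IRF and SOCS genes tested, 2 rose and none fell, where 1.05% of all genes were called higher. The median was 0.14. At an unadjusted p under 0.05, 10 were higher and 1 was lower, where 4.4% and 3.84% of all genes were. Irf1, a transcription factor that drives class I and GTPase genes, was at 393 and 192 CPM with ATEVs against 36.3 and 50.6 with NTEVs (log2 fold change 2.75 ± 0.36, adjusted p = 0.0158). The receptor chains Ifngr1 and Ifngr2 and the kinases Jak1 and Jak2 had log2 fold changes of 0.06, -0.05, 0.14 and -0.02. Socs1, the feedback inhibitor of JAK kinases, was at 32.1 and 9.77 CPM against 4.28 and 3.31 and was not called (2.46 ± 0.52, adjusted p = 0.107). Irf8 had 110 and 23 counts with ATEVs and 0 with NTEVs, at least 46.4-fold higher, and was not called (adjusted p = 0.204). The Irf1 call was lost without NTEV replicate 1 (adjusted p = 0.14) and without NTEV replicate 2 (0.0637).

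Promoters of GTPase, class I and antiviral genes were searched for the interferon-stimulated response element, bound by interferon regulatory factors, and for the gamma-activated site, through which interferon-gamma acts. The letters were GAAANNGAAA for the former and TTCNNNGAA, which is its own reverse complement, for the latter, on both strands of the 300-base RefSeq windows. The 150 bases before the start of 4 raised genes are shown with matches to these 2 elements in capitals as examples of each, and overlapping matches run together in Gbp3 and Isg15. They lie on GRCm38.p6 at chr2:122147537-122147686 (plus), chr11:53769864-53770013 (plus), chr3:142559894-142560043 (plus) and chr4:156200819-156200968 (minus).
B2m: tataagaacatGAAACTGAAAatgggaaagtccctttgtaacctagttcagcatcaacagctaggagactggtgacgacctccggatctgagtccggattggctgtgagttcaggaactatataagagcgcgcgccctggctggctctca
Irf1: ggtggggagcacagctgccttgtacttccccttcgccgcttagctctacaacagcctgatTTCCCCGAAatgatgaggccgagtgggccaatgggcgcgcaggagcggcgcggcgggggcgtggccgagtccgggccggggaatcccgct
Gbp3: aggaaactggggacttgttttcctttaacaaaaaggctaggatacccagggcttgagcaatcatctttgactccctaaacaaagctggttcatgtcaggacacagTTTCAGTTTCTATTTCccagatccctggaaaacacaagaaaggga
Isg15: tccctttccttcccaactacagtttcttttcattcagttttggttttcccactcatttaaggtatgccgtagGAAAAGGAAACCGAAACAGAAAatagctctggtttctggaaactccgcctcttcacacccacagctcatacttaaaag
B2m, Gbp3 and Isg15 show matches to the response element and Irf1 to the gamma-activated site. The response element was found in the windows of 38 of 118 raised genes (32.2%), in 3.78% of the 10604 tested genes with a window and in 3.99% of all 27025 genes. The gamma-activated site was found in 21 of 118 raised genes (17.8%) and in 8.29% of the tested genes. None of the 13 lowered genes with a window held either motif, but 13 genes are too few to compare with these shares. Among called GTPases with a window, 9 of 10 held the response element and 6 of 10 the gamma-activated site; of the called antiviral genes 12 of 22 held the former and 4 of 22 the latter. None of the 4 called class II genes with a window held either, which is again too few to compare. All 8 called class I chains with a window held the Y box, found in 42.9% of the tested genes. A match describes the letters in the window only.

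Of 24 nucleic acid sensing genes tested, 2 rose and none fell, where 1.05% of all genes were called higher. The median was 0.56. At an unadjusted p under 0.05, 11 were higher and none was lower, where 4.4% of all genes were higher. Ifi203 and Ifi211 are members of the AIM2-like family of DNA-binding proteins. Ifi203 was at 62.1 and 66.6 CPM against 5.47 and 11.4 (log2 fold change 2.93 ± 0.46, adjusted p = 0.0344) and Ifi211 at 24.2 and 25.3 against 10.4 and 11.6 (1.17 ± 0.18, adjusted p = 0.0308). Both overlap their neighbour Mndal on the same strand. Cgas, the cytosolic DNA sensor, was low, at 5.15 and 1.89 CPM against 2.31 and 0.896, with overlapping groups. Its adaptor STING, listed under the symbol Tmem173, was at 13.7 and 21.7 CPM against 7.96 and 15.5, also with overlapping groups. The RNA sensor Ifih1 missed the threshold (log2 fold change 1.18, adjusted p = 0.063). Neither call held in every fit without 1 library: the adjusted p without NTEV replicate 1 was 0.191 for Ifi203 and 0.283 for Ifi211, without ATEV replicate 1 it was 0.0927 and 0.121, and without ATEV replicate 2 it was 0.0739 and 0.0985. Without NTEV replicate 2 it was 0.049 and 0.145.

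Chemokine and cytokine genes moved unevenly. Of 28 tested, 3 rose and none fell, with a median of 0.61. Cxcl9, which recruits T cells through CXCR3, was at 31.1 and 4.59 CPM with ATEVs against 0.235 and 0.423 with NTEVs (log2 fold change 5.77 ± 0.98, adjusted p = 0.0479). Ccl2, which recruits monocytes, was at 25.4 and 24.4 CPM against 1.80 and 1.54 (3.89 ± 0.59, adjusted p = 0.0311), and Cxcl3, which recruits neutrophils, at 57.4 and 34.1 against 5.92 and 4.43 (3.14 ± 0.54, adjusted p = 0.0497). Cxcl10, the partner of Cxcl9, was at 46.0 and 7.12 CPM against 0.450 and 1.07 and missed the threshold (adjusted p = 0.0605). Cxcl9 and Cxcl10 were thus both several-fold higher in ATEV replicate 1 than in replicate 2. Cxcl1 and Ccl20 were not called, with log2 fold changes of 0.70 and 0.65. The 3 calls stood near the threshold and did not hold in every fit without 1 library. Without NTEV replicate 1 the adjusted p was 0.328 for Cxcl9, 0.215 for Ccl2 and 0.254 for Cxcl3; without NTEV replicate 2 it was 0.223, 0.194 and 0.29. Without ATEV replicate 1 it was 0.0702 for Ccl2 and 0.137 for Cxcl3, and without ATEV replicate 2 it was 0.0505 for Ccl2.

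Among NF-kB subunits, regulators and targets, 3 of 25 tested genes rose, none fell and the median was 0.14. Nos2, the inducible nitric oxide synthase, was at 8.48 and 6.16 CPM with ATEVs and had 0 and 1 counts with NTEVs, so the counts give a ratio of 668, with 95% counting bounds at 119.5 and 26444 (adjusted p = 0.00764). Lcn2, which binds bacterial siderophores, was at 2.64 and 8.49 CPM against 2 and 1 counts (log2 fold change 7.29 ± 0.91, adjusted p = 0.0126). Icam1, the adhesion ligand of T cells, was at 99.7 and 52.9 CPM against 12.7 and 18.6 (2.29 ± 0.37, adjusted p = 0.0392). Complement genes of the classical pathway also rose: C1s1 was at 137 and 163 CPM against 10.4 and 20.9 (3.26 ± 0.34, adjusted p = 0.00641) and C1ra at 76.1 and 80.6 against 12.98 and 19.9 (2.25 ± 0.22, adjusted p = 0.0049). They and Lcn2 were the 3 of 19 complement and acute phase genes called, and that list had a median of 1.08. C3, the central complement component, was at 45.3 and 215 CPM against 6.86 and 32.1 and was not called. Without NTEV replicate 1 the adjusted p was 0.0732 for Nos2, 0.14 for Lcn2 and 0.272 for Icam1; without NTEV replicate 2 it was 0.096 for Lcn2 and 0.124 for Icam1, and without ATEV replicate 1 it was 0.107 for Icam1.

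Surface molecules and other genes that act on T and NK cells formed a further list. Of 22 tested, 5 rose and none fell, where 1.05% of all genes were called higher, and the median was 0.04. Fas, the death receptor, was at 13.1 and 7.94 CPM with ATEVs against 0.352 and 0.572 with NTEVs (log2 fold change 4.51 ± 0.44, adjusted p = 0.00441). Ido1, which depletes tryptophan and restrains T cells, was at 21.8 and 7.74 CPM against 0.0782 and 0.0498 (7.76 ± 0.87, adjusted p = 0.00789). Tnfsf10, the ligand TRAIL, was at 6.32 and 3.31 CPM against 0.0586 and 0.0249 (6.70 ± 1.08, adjusted p = 0.0384). Tnfrsf14, the receptor HVEM, was at 9.93 and 7.69 CPM against 0.958 and 2.02 (2.57 ± 0.39, adjusted p = 0.0311), and Icam1 was the fifth. Cd274, which encodes the checkpoint ligand PD-L1, was at 55.7 and 78.0 CPM with ATEVs and at 26.0 and 50.3 CPM with NTEVs. The groups did not overlap, but the difference did not pass the test (log2 fold change 0.81 ± 0.40, adjusted p = 0.747, 95% interval -0.14 to 1.76). Fas was called in each fit without 1 library. Without NTEV replicate 1 the list had 1 call, with an adjusted p of 0.0919 for Ido1, 0.273 for Tnfsf10 and 0.14 for Tnfrsf14, and the list had 2 calls without NTEV replicate 2, when that of Ido1 was 0.0684 and that of Tnfsf10 0.238. Without ATEV replicate 1 it had 2 calls, with 0.111 for Tnfsf10 and 0.136 for Tnfrsf14.

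Of 25 cell death genes tested, 3 rose, Casp1 and Fas among them, none fell, and the median was 0.24. Casp1, the inflammasome protease, was nearly equal in the ATEV libraries, at 16.2 and 16.3 CPM against 0.254 and 0.348 with NTEVs (log2 fold change 5.75 ± 0.31, adjusted p = 0.000639). Casp4 and Mlkl, genes of pyroptosis and necroptosis, were not called, with log2 fold changes of 0.98 and 0.99. The Casp1 call held in each fit without 1 library.

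Of 23 mesenchymal and EMT genes tested, 4 rose, none fell and the median was 0.20. Fstl1, a secreted follistatin-like protein, was at 28.9 and 23.9 CPM against 2.27 and 1.10 (log2 fold change 3.96 ± 0.36, adjusted p = 0.00414). Acta2, smooth muscle actin, was at 38.5 and 39.8 CPM against 4.30 and 1.79 (3.67 ± 0.39, adjusted p = 0.00641), and it lies beside Fas in the genome. The transcription factor genes Prrx1 and Zeb2 also rose, with log2 fold changes of 2.52 ± 0.33 and 1.18 ± 0.20 (adjusted p = 0.0158 and 0.0479). The most abundant member, Vim, was at 2421 and 2517 CPM against 2569.6 and 3107 and did not pass the test. The Prrx1 call was lost without NTEV replicate 1 (0.105) or ATEV replicate 1 (0.0625), and the Zeb2 call without any of the 4, with an adjusted p of 0.339 without NTEV replicate 1, 0.227 without ATEV replicate 1, 0.149 without NTEV replicate 2 and 0.101 without ATEV replicate 2.

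Among 34 epithelial and ductal genes, 1 rose and 1 fell, with a median of -0.21. Ehf, an epithelial ETS factor, was at 40.3 and 49.0 CPM against 4.61 and 5.20 (log2 fold change 3.19 ± 0.23, adjusted p = 0.00159), in every fit without 1 library as well. Of 31 matrix and protease genes, 1 rose and 1 fell, and the median was -0.46. Fbn1, which encodes fibrillin, was at 3.43 and 1.57 CPM against 0.0782 and 0 (5.78 ± 0.88, adjusted p = 0.0311), while Ltbp2, a fibrillin-associated protein in the TGF-beta list, was at 22.03 and 26.7 CPM against 2.31 and 2.39 (3.38 ± 0.18, adjusted p = 0.000639). Ltbp2 overlaps an antisense RNA gene. In the epithelial list 15 of 34 genes and in the matrix list 16 of 31 had both ATEV values below both NTEV values, where 16.3% of all genes did. At an unadjusted p under 0.05, 7 epithelial and 9 matrix genes were lower, against 3.84% of all genes. The keratin Krt19 was at 1680 and 2562 CPM against 2205 and 2700 with overlapping groups. The Fbn1 call was lost without NTEV replicate 1 (0.0723), ATEV replicate 1 (0.102) or NTEV replicate 2 (0.104).

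The largest of the 22 falls was that of a mucin. Muc5ac, a secreted gastric-type mucin often made by pancreatic precursor lesions, was at 0.115 and 0.479 CPM with ATEVs against 10.4 and 33.0 with NTEVs (log2 fold change -6.17 ± 1.04, adjusted p = 0.0462). In the PBS libraries it stood at 2.18 and 7.66 CPM, between the EV groups. Homer2, a scaffold protein of calcium signalling, was at 10.4 and 9.47 CPM against 65.5 and 59.8 (-2.66 ± 0.18, adjusted p = 0.00128), with PBS at 56.2 and 57.7. Its groups were narrow and wide apart, and it had the smallest adjusted p of the falls. Slc4a11, a membrane transporter, was at 1.22 and 2.08 CPM against 8.89 and 8.56 (-2.40 ± 0.29, adjusted p = 0.0103). Onecut3, a homeobox transcription factor, was at 6.14 and 7.17 CPM against 20.6 and 21.8 (-1.67 ± 0.16, adjusted p = 0.00448).

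Other falls were smaller. Itgb4, an integrin chain of hemidesmosomes, was at 54.5 and 78.4 CPM against 150 and 184 (log2 fold change -1.33 ± 0.21, adjusted p = 0.0334). Pkp1, a desmosomal plaque protein, was at 6.001 and 5.23 CPM against 17.9 and 13.2 (-1.47 ± 0.23, adjusted p = 0.0334). Add2, of the membrane skeleton, was at 8.81 and 8.72 CPM against 24.8 and 26.2 (-1.54 ± 0.17, adjusted p = 0.00764), and Robo1, a receptor of the SLIT guidance cues, at 5.31 and 5.98 against 16.0 and 21.2 (-1.72 ± 0.22, adjusted p = 0.0138). All these groups were apart. Serpinb5, Sema5a, Padi2, Fmnl1, Oprd1, Arfgef3 and Tmem246 fell by 1.34, 1.51, 1.27, 1.58, 1.33, 1.91 and 1.68 on the log2 scale.

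Most falls lost their call when 1 library was left out. Of the 15 largest falls named here, 2, Homer2 and Onecut3, were called in each of the 4 fits that left out 1 library, and 8 were called in none of them. The adjusted p of Muc5ac ranged from 0.0607 without NTEV replicate 1 to 0.217 without ATEV replicate 1. Slc4a11 lost its call without NTEV replicate 1 (0.0723), Robo1 without ATEV replicate 1 (0.101) or NTEV replicate 2 (0.0753), Itgb4 without NTEV replicate 2 (0.176), ATEV replicate 1 (0.135) or NTEV replicate 1 (0.106), and Add2 without the same 3 libraries at up to 0.0603. Their direction stayed negative in each of these fits, which could hardly reverse it because the groups were apart. The count of lowered genes was 6 without NTEV replicate 1, 3 without NTEV replicate 2, 4 without ATEV replicate 1 and 22 without ATEV replicate 2. With the 4 compared libraries alone it was 1.

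**Figure D4:**
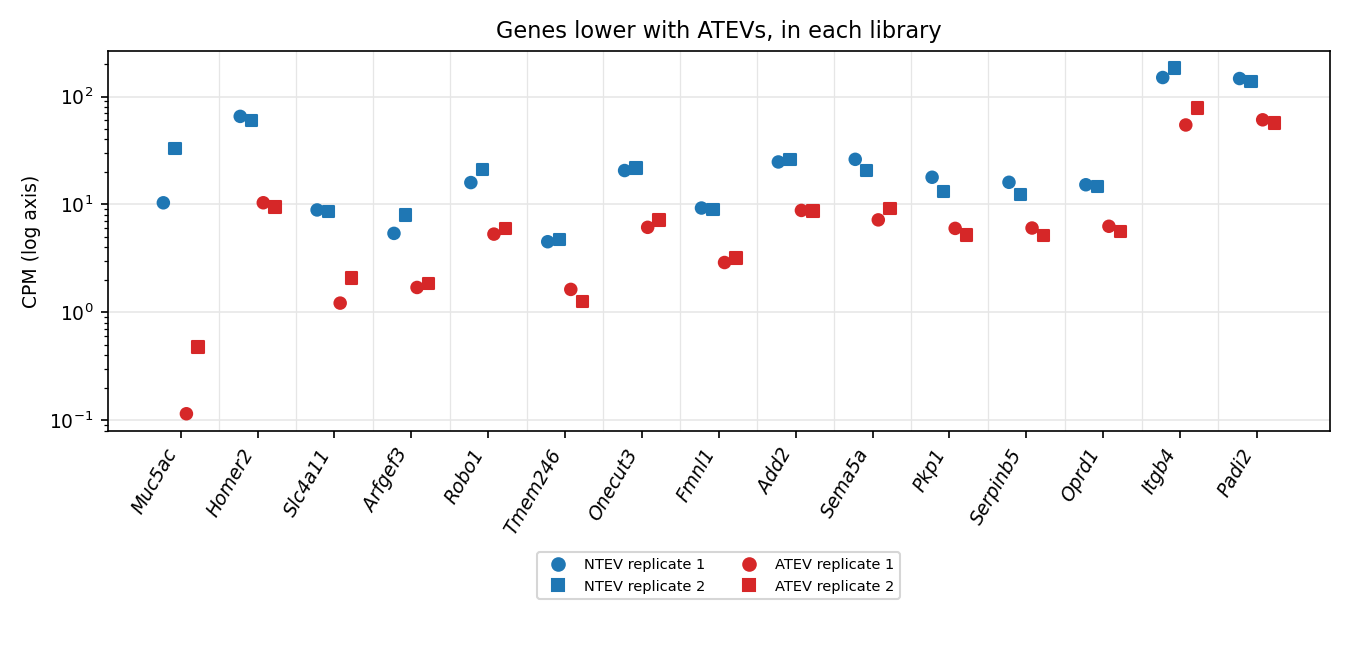
CPM on a log axis for the 15 largest named falls in the 2 NTEV libraries (blue) and the 2 ATEV libraries (red), circles for replicate 1 and squares for replicate 2. Both red symbols lie below both blue ones for each gene; the gap is widest for Muc5ac, whose 2 NTEV values, 10.4 and 33.0 CPM, also differ most from each other.

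Raised genes often lay next to each other. RefSeq gene order could place 14272 tested genes. Among these, 60 of 158 raised genes stood directly beside another raised gene, in 21 runs, where raised genes were 1.05% of all genes tested. Of 21 lowered genes 0 stood beside a lowered one, but so few among 14272 would seldom be neighbours, and the directions are not compared. The longest run held 9 genes of the MHC: H2-DMa, H2-DMb1, Psmb9, Tap1, Psmb8, Tap2, H2-Ab1, H2-Aa and H2-Eb1. Runs of 4 held Gbp9, Gbp4, Gbp10 and Gbp6, and Iigp1 with its relatives. Many runs are families of similar sequence, and 47 of the 181 called genes overlap another tested gene, 35 of them on the opposite strand, so the values within a run are not independent readings. The share of overlapping genes among all genes tested was not counted.

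Of the 34 lists, 16 contained no called gene. They were the Notch, YAP and TEAD, immediate early, ATF4 and unfolded protein, heat shock, NRF2, glycolysis, cholesterol, respiratory chain, ribosomal protein, MYC, S phase, mitosis, T cell, activated T cell and myeloid and B cell lists. By edgeR's quasi-likelihood test in the main fit 0 of their 314 tested members passed. At an unadjusted p under 0.05 there were 12 (7 higher and 5 lower, where 8.23% of all genes passed in either direction). DESeq2 called 2, 1 Notch and 1 YAP gene. With the replicate number as a block over the EV-treated libraries edgeR called 14, but the labels do not pair these numbers. Without a filter on low counts it called 1. The proliferation genes had small positive medians, 0.34 for S phase and 0.31 for mitosis. Top2a, the mitotic topoisomerase, was at 930 and 408 CPM with ATEVs against 604 and 304 with NTEVs, so its groups overlapped. The 3 T cell markers that passed the filter were Lck, Tcf7 and Trac. Lck had a log2 fold change of 1.22 and Trac, at 4.48 and 4.66 CPM with ATEVs, was at 6.04 and 4.11 with NTEVs and 6.45 and 7.17 with PBS.

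The libraries of a group differed from each other along some of these lists. In both EV groups replicate 1 was higher than replicate 2 for all 30 S phase genes, with median log2 ratios of 1.20 with ATEVs and 1.06 with NTEVs, and for 29 of 30 mitosis genes. Glycolysis genes went the other way, with median ratios of -0.70 and -0.77. The presentation lists did not share 1 order. With ATEVs 14 of 14 loading genes and 7 of 8 class II genes were higher in replicate 1, but only 4 of 11 class I chains were.

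**Figure D5:**
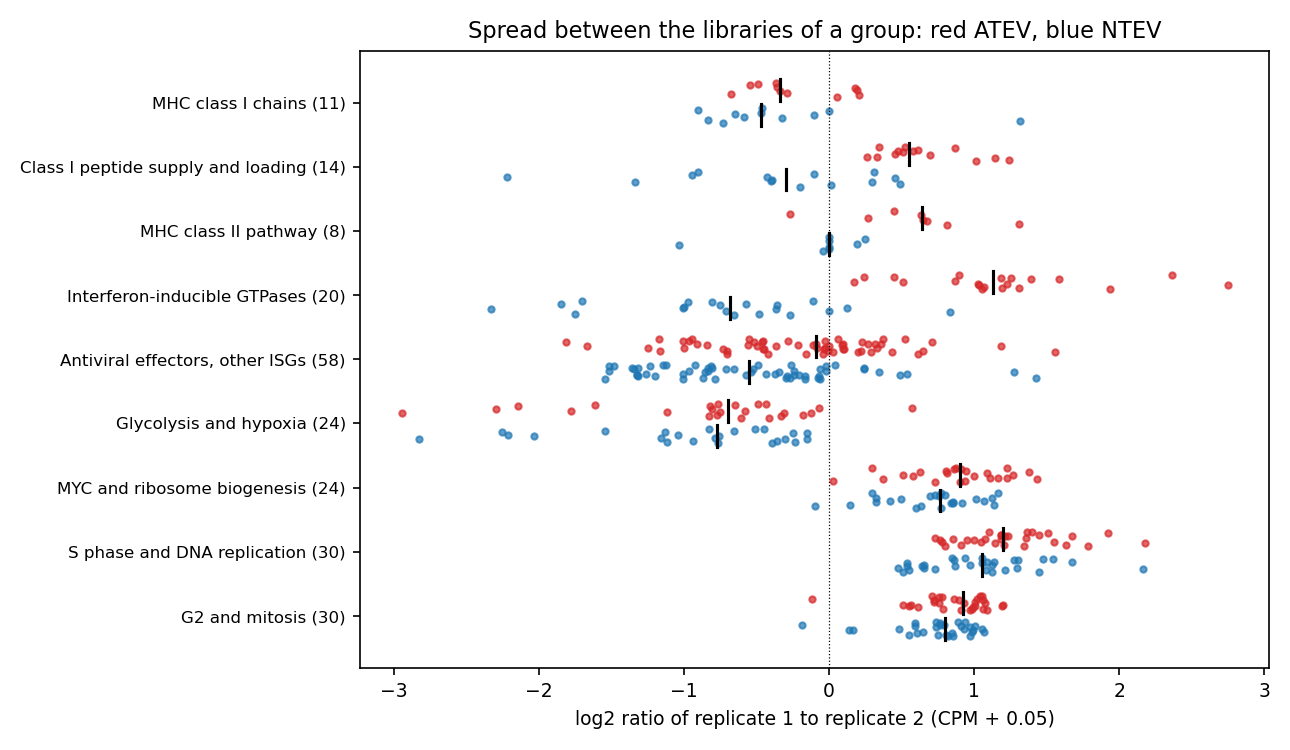
The log2 ratio of replicate 1 to replicate 2 on the x axis for each tested member of 9 gene lists, red within the ATEV group and blue within the NTEV group, with black bars at the medians. S phase and mitosis genes lie to the right of 0 in both groups, glycolysis genes to the left, and the GTPases to the right with ATEVs (median 1.13) and to the left with NTEVs (median -0.68).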

How the data were processed

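RNA was sequenced from 8 libraries of a mouse pancreatic cancer clone, 2 per treatment (PBS, ATEVs, NTEVs, DNase-treated ATEVs), and ATEV was compared with NTEV. Per the labels' protocols, RNA came from a column kit and libraries were stranded mRNA. bcl2fastq 2.19, TopHat2 2.0.11, TopHat, Cufflinks 2.1.1 and mm9 are named, without role or order, in the submitters' processing notes. Which counter, strand setting and annotation were used is not stated there or in the labels. The deposited values are whole-number gene counts, unnormalized, for 42687 Ensembl identifiers, of which 42329 received a symbol from GENCODE M21.

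The counts were tested with edgeR 4.0.16 in R 4.3.3. Its expression filter left 15197 genes, scaled by TMM. The quasi-likelihood fit had 1 mean for each treatment and used the 8 libraries together, so that the PBS and DNase libraries add to the estimate of the spread (4 residual degrees of freedom) without entering the contrast. P-values are two-sided and Benjamini-Hochberg adjusted over all genes tested, with a threshold of 0.05; a gene under it is called. CPM values are counts scaled by TMM library size, in the order replicate 1, replicate 2. Errors are SEs of log2 fold changes. With 0 counts in a group, the fold is a lower bound against 3 counts over the group; with 1 to 3, the count ratio carries a 95% exact interval. Both cover counting error only. Libraries of a group differed far beyond sampling noise (chi-square per gene 145 with ATEVs, 92.0 with NTEVs) and were counted singly.

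The comparison, gene lists and rule for named genes were chosen with earlier results of these data known. The rule took the 15 largest called rises and the 15 largest called falls whose mean log2 CPM was 1 or more and whose groups were apart, without predicted genes and pseudogenes. Per list, the 6 members of smallest p (or fewer) were added, and always Irf1, Cd274, H2-D1, H2-K1, B2m, Nlrc5, Psmb8 and Tap1. Some genes that were tested are not reported here. Other names are members of lists described, or were chosen with their values in view. Lists are described by counts and medians. Alternatives were DESeq2 1.42.0, other scaling, filters and sets of libraries, a replicate block, and leaving out each library, where a lone library is assumed to vary like the other groups. The steps were tested on simulated counts.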

Additional observations from a re-analysis of the deposited data

How the results depend on the processing

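No called gene changed direction under any of the 13 alternatives that tested it. Every called gene had its ATEV and NTEV values apart, so refits of the same counts could hardly reverse a direction. Counts of calls did move, from 181 (159 higher, 22 lower). They were 51 (50 and 1) with the ATEV and NTEV libraries alone, 110 (100 and 10) with the EV-treated libraries alone, 469 (332 and 137) with DESeq2, 459 (339 and 120) without a filter and 90 (73 and 17) with a filter of 1 CPM in 4 libraries. Leaving out 1 library gave 71 to 166 calls in all, 65 to 144 higher and 3 to 22 lower. Relative log expression scaling gave 180 and protein-coding genes alone 172. Against 27 antiviral genes called, these settings gave 6 with the ATEV and NTEV libraries alone, 13 with the EV-treated libraries alone, 42 with DESeq2, 41 without a filter, 15 with the stricter filter and 7 to 23 without 1 library. For 8 loading genes they gave 3, 5, 11, 11, 4 and 5 to 11, and for 5 ligands and receptors 0, 2, 5, 5, 1 and 1 to 5. For 17 GTPases the ATEV and NTEV libraries alone gave 5, the stricter filter 9 and leaving out 1 library 10 to 17. Class II had 7 calls in every fit but the 4 libraries alone (6) and the stricter filter (0), which removes genes expressed in only 2 libraries by its construction. Fewer libraries leave fewer residual degrees of freedom; the cause of the other shifts was not tested.

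The labels do not pair the replicate numbers. With the number as a replicate block over all libraries, 255 genes were called (199 higher, 56 lower), 180 of them among the 181. With the replicate block over the EV-treated libraries 1087 were called (569 higher, 518 lower), all 181 included, with 47 antiviral and 9 ligand genes, and 14 calls among the 16 lists described as without a called gene. Deviations of same-numbered libraries correlated at 0.713 between ATEV and NTEV, 0.693 between ATEV and DNase-treated ATEV and 0.646 between NTEV and DNase-treated ATEV, and at -0.272 between ATEV and PBS and -0.327 between NTEV and PBS. With 2 libraries per group, precision rests on 4 residual degrees of freedom, and the ratios of genes at 0 to 3 counts rest on few reads.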

Other observations

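Some raised genes outside the lists, chosen after their values were seen, are better known from phagocytes. Cybb, a subunit of the phagocyte NADPH oxidase, was at 47.7 and 47.0 CPM with ATEVs against 1.43 and 3.48 with NTEVs, a log2 fold change of 4.28 ± 0.46 (adjusted p = 0.00645, edgeR's quasi-likelihood test). Mpeg1, a pore-forming protein best known from macrophages, was at 51.1 and 20.9 CPM against 0.371 and 0.274 (6.78 ± 0.53, adjusted p = 0.00248). Of 21 myeloid and B cell markers 5 passed the filter, with log2 fold changes from -0.07 to 4.63 and a median of 0.91, and none was called. Among the 21 markers 6 had 0 counts in the 4 libraries compared, while Cd14 was at 152 and 165 CPM against 105 and 121.

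A further 3 raised genes outside the lists were also chosen after their values were seen. Il15ra, which presents IL-15 to NK and T cells, was at 12.8 and 5.91 CPM against 0.332 and 0.274 (log2 fold change 4.93 ± 0.47, adjusted p = 0.00441). Tnfsf13b, the B cell factor BAFF, was at 14.1 and 10.2 CPM against 1.09 and 0.747 (3.71 ± 0.31, adjusted p = 0.00273). Ly6a, a GPI-anchored surface protein induced by interferon, was at 206 and 194 CPM against 40.1 and 38.1 (2.36 ± 0.18, adjusted p = 0.00205). In these 5 genes both ATEV values lay above both NTEV values, and each was called in every fit that left out 1 library.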
